A study of Mus musculus with 5 samples.

Results

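Transcripts of 37 genes that anchor uterine cells to their matrix were described here: 25 integrin chains (17 alpha and 8 beta), 10 laminin chains and 2 nidogens. They were taken by symbol, as members of these families, from the 28666 genes of the count table and occupied 38 of its rows, since Itgam was listed on a second row that held 0 or 1 counts. The remaining 37 rows passed the filter on low counts and were tested among 17013 genes.

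RNA of whole uteri from ICR females aged 6 to 8 weeks was sequenced. The females had been caged with C57BL/6 males sterilized by vasectomy, so that all of them received seminal plasma (SP) without sperm, and no unmated females were among these libraries. In the young-SP group (n = 3, replicates 1, 2 and 4) the males were 12 to 14 weeks old, and in the aged-SP group (n = 2, replicates 1 and 4) they were 12 to 18 months old. The labels place collection at 3.5 days after caging, while the study's methods give a slightly earlier time counted from the copulatory plug, and both lie before implantation. The comparison asks how the age of the male whose SP was received bears on the uterine transcripts. The labels do not say how many males contributed, so the p-values measure the spread between these libraries. A further young-SP library was excluded by the study as an outlier in hierarchical clustering. The spread within young-SP is therefore that of the libraries kept.

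Integrins are receptors made of 1 alpha and 1 beta chain that span the cell membrane and tie the matrix outside to the actin skeleton inside. Laminins are trimers of 1 alpha, 1 beta and 1 gamma chain that form the sheet of every basement membrane, and nidogens join that sheet to the network of type IV collagen. In the uterus, basement membranes lie under the luminal and glandular epithelium and around each smooth muscle cell and vessel, and decidual cells later build one around themselves. The epithelium and its basement membrane are what an attaching embryo has to cross.

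Libraries held 15071914 to 16728601 counts, and expression is given as CPM, the share of a library's counts on a common scale of library size, adjusted by the trimmed mean of M values. Markers of endometrial stroma summed to between 4035 and 5995 CPM and those of myometrium to between 9046 and 14235 CPM, so that the defining cell types of the labelled tissue were present. The summed gland markers reached 4072 and 2927 CPM in aged-SP, against 506 in young-SP replicate 1 and 50.7 and 40.6 in young-SP replicates 2 and 4. Young-SP replicate 1 thus stood apart within its group, and its epithelial marker sum of 5317 CPM lay within the aged-SP range of 4042 to 5719 CPM, above the 776 and 1337 CPM of the other young-SP libraries. In aged-SP and in young-SP replicate 1, Prss28 and Prss29 made up most of the gland sum and Ltf most of the epithelial sum. Ltf was at 2708 and 4330 CPM in aged-SP and 3632, 28.3 and 394 CPM in young-SP. Of the 9 epithelial genes, only Krt18 did not overlap between the groups. Among the gland genes, Prss28, Prss29 and Spink1 were higher and Cxcl15 and Ttr lower in aged-SP without overlap, while Foxa2 overlapped. Where leaving out young-SP replicate 1 changed a call among the members, the value without it is given too. That library was singled out by its own values, so these refits are description and not independent support. In bulk tissue, fewer cells of a type and less RNA per cell cannot be told apart.

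With all 5 libraries, 0 of the 37 members passed the edgeR quasi-likelihood test at an adjusted p under 0.05 with an absolute log2 fold change over 1, as did 25 genes in all (0.147%). By the DESeq2 Wald test at the same limits, 4 members passed. Lamc3 and Lama2 were lower in aged-SP, Lama1 and Itga11 were higher, and 632 genes in all passed (3.60% of 17536). At a DESeq2 adjusted p under 0.05 with no limit on the fold change, 8 members passed (21.6%, against 7.58% of all genes), the further members being Nid1, Lama5, Itga8 and Itgb5. An unadjusted edgeR p under 0.05 was reached by 13 members (35.1%, against 19.0% of all genes). Of these, 8 were higher in aged-SP (9.62% of all genes were) and 5 were lower (9.36% of all genes were). The groups did not overlap for 16 members (43.2%), close to the 38.8% of all genes. The median log2 fold change of the 37 members was 0.16, and that of all tested genes was 0.01. All fold changes are aged-SP over young-SP.

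**Figure D1:**
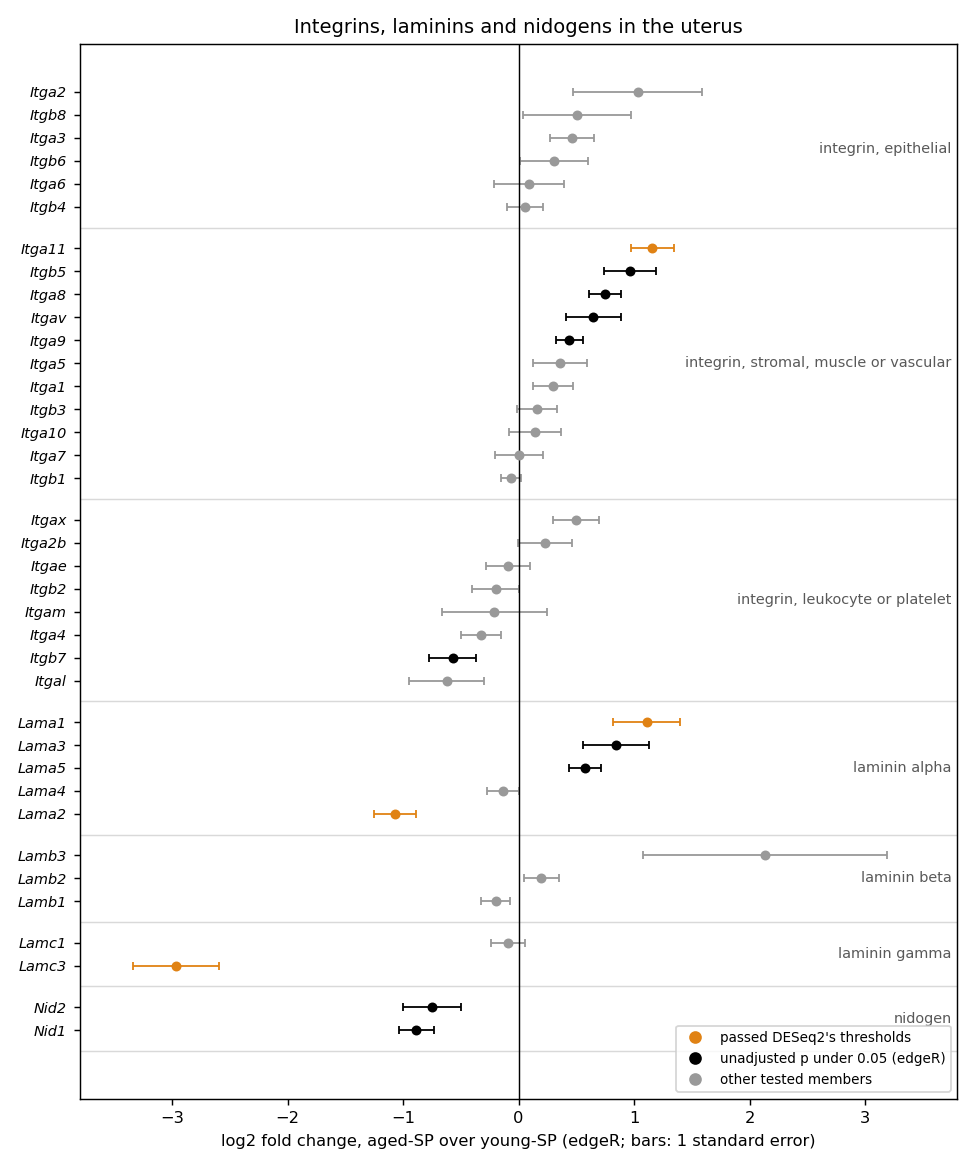
Log2 fold change of each tested member in edgeR, aged-SP over young-SP, on the horizontal axis, with bars of 1 standard error and the members grouped by class. Lamc3 lies farthest to the left at -2.97 and Lamb3 farthest to the right at 2.13 with the widest bar, and the points of the stromal, muscle or vascular integrins lie at or to the right of 0 except Itgb1 at -0.07.

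Laminin alpha chains lay on both sides of 0, and both nidogens lay below it. Of these 12 genes, 7 (58.3%) reached an unadjusted edgeR p under 0.05, against 19.0% of all genes. They were 3 higher (Lama1, Lama3 and Lama5, where 9.62% of all genes were) and 4 lower (Lama2, Lamc3, Nid1 and Nid2, where 9.36% of all genes were). Beta chains reached it in 0 of 3, and the most abundant gamma chain, Lamc1, did not reach it. Summed per kilobase of gene length, the alpha chains stood at 56.7 ± 5.68 CPM per kb in aged-SP (SD, n = 2) and 53.7 ± 4.97 in young-SP (SD, n = 3), and these ranges overlapped.

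Lamc3, a gamma chain of more restricted distribution than Lamc1, had the largest fold difference of the 37 members. It was at 7.62 and 7.61 CPM in aged-SP replicates 1 and 4, and at 36.5, 61.5 and 80.6 CPM in young-SP replicates 1, 2 and 4. Every young-SP library lay above both aged-SP libraries, and the means differed 7.82-fold. The log2 fold change was -2.97 ± 0.37 (SE), with an adjusted p of 0.0674 in edgeR and 4.81e-14 in DESeq2. Without young-SP replicate 1, the log2 fold change was -3.23 and the edgeR adjusted p was 0.00784, and 3.45% of all genes then passed the edgeR limits. Lamc3 passed the DESeq2 limits with any library left out. Its position was chr2:31887291-31946539 on the plus strand (coordinates of GRCm38 throughout).

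Lamc1, which enters most laminins, held the larger part of the gamma chains in every library. Its CPM was 516 and 409 in aged-SP and 439, 522 and 519 in young-SP, with overlapping groups and a log2 fold change of -0.09 (edgeR adjusted p = 0.765). Of the gamma chains counted per kb, Lamc3 made up 1.96% and 2.46% in aged-SP and 10.1%, 13.8% and 17.4% in young-SP. This ratio is within libraries, so it shows unequal change of the chains and does not depend on the scaling between libraries. The exact two-sided permutation test over 2 against 3 libraries gave p = 0.2, the smallest it can give, so no share can pass at 0.05, and over the 37 chain shares compared the smallest adjusted p was 0.463.

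Lama2, the alpha chain of the laminin around muscle cells, was the most lowered alpha chain. Its CPM was 119 and 95.3 in aged-SP and 182, 248 and 243 in young-SP. Both aged-SP libraries lay below all young-SP libraries, by 2.096-fold between the means. The log2 fold change was -1.07 ± 0.18 (SE), with an adjusted p of 0.0829 in edgeR and 3.04e-05 in DESeq2, and without young-SP replicate 1 it was -1.21 with an edgeR adjusted p of 0.0234. In DESeq2, Lama2 missed the fold limit without aged-SP replicate 4 and without young-SP replicate 2. Summed myometrial markers overlapped between the groups (9046 and 11455 CPM in aged-SP, 9422 to 14235 CPM in young-SP), with 1 of 7, Acta2, lower without overlap (2475 and 2940 CPM against 3025, 3539 and 4268 CPM). Summed stromal markers also overlapped (4035 and 5046 CPM against 4119 to 5995 CPM), with Pdgfra, Hand2 and Hoxa11 lower and Pdgfrb higher without overlap among 8 markers. Pdgfra was at 347 and 344 CPM in aged-SP and 453, 617 and 560 CPM in young-SP (adjusted p = 0.1205 in edgeR and 0.0048 in DESeq2). The skeletal muscle actin Acta1, which made up most of a summed list of adipose and skeletal muscle markers, was at 66.1 and 82.6 CPM against 157, 233 and 223 CPM, while Ckm overlapped and Adipoq and Plin1 had 0 counts in both aged-SP libraries and at most 12 in young-SP. The part of these cell types in the values of Lama2, and in those of Nid1, Nid2 and Fbn1 given below, was not tested.

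Lama5, the alpha chain of most mature epithelial and vascular basement membranes, was higher in aged-SP. It stood at 320 and 272 CPM in aged-SP and at 218, 172 and 206 CPM in young-SP, with no overlap. Its log2 fold change was 0.58 ± 0.14 (SE), with an adjusted p of 0.131 in edgeR and 0.0185 in DESeq2. By length, Lama5 was the leading alpha chain of both aged-SP libraries and of young-SP replicate 1, while Lama4 led in young-SP replicates 2 and 4.

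Lama1, the alpha chain typical of embryonic basement membranes, was low in every library, with means that differed 2.16-fold. Its values were 7.25 and 11.96 CPM in aged-SP and 3.63, 4.91 and 4.81 CPM in young-SP, which rest on 120 and 187 counts against 58 to 83. The groups did not overlap, and the log2 fold change of 1.11 ± 0.29 (SE) had an adjusted p of 0.144 in edgeR and 0.0314 in DESeq2. It passed the DESeq2 limits with all 5 libraries, and no longer with any 1 of them left out.

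Lama3, the alpha chain of the laminin that anchors epithelia at hemidesmosomes, was at 85.2 and 48.2 CPM in aged-SP and 30.6, 35.1 and 46.0 CPM in young-SP. The lower aged-SP value was barely above the highest young-SP value. The log2 fold change was 0.84 ± 0.29 (SE), with an adjusted p of 0.213 in edgeR and 0.0849 in DESeq2, and it ranged from 0.37 without aged-SP replicate 1 to 1.19 without aged-SP replicate 4, when it passed the DESeq2 limits. Lama4, the alpha chain of vessel walls and muscle, ran from 197 to 260.3 CPM in young-SP and lay at 201 and 207 CPM in aged-SP, within that range.

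The shares of the alpha chains, divided by gene length, are given as values, since no test of them could pass. Lama5 made up 45.8% ± 0.58 of the alpha chains in aged-SP (SD, n = 2) and 32.7% ± 5.07 in young-SP (SD, n = 3). Lama2 made up 11.5% ± 0.63 and 25.6% ± 3.49, respectively. The shares of the 5 alpha chains did not overlap between the groups, among 16 of the 37 chain shares compared, but for Lama4 the gap was only that between 32.62% and 32.70%. The exact permutation p of each was 0.2, the smallest possible, and 0.463 adjusted over the 37 shares.

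**Figure D2:**
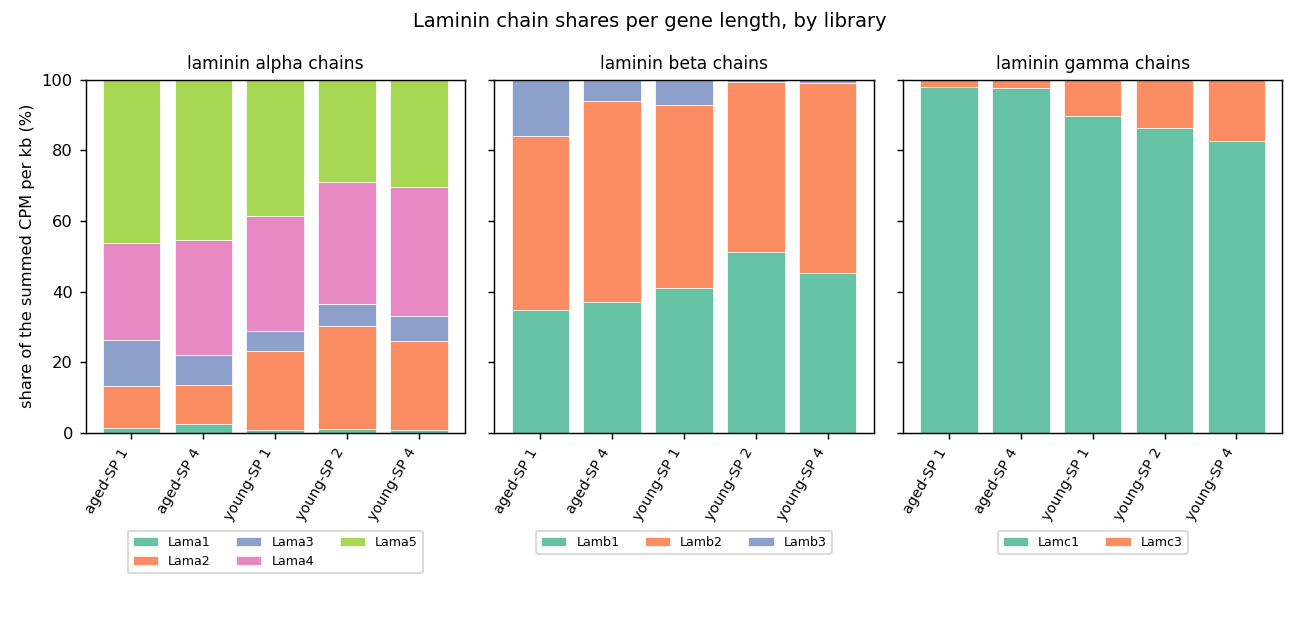
Share of each chain in the summed CPM per kb of its laminin family (percent, vertical axis), as 1 stacked bar per library, for alpha, beta and gamma chains. In the alpha panel the Lama2 segment is 11.96% and 11.07% of the aged-SP bars and 22.3% to 29.3% of the young-SP bars, and in the gamma panel the Lamc3 segment is 2.46% or less in aged-SP and 10.1% or more in young-SP.

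Among the beta chains, Lamb1 and Lamb2 were abundant, and their CPM overlapped between the groups. Lamb1, the partner of Lama1 and Lama2 in many laminins, was at 311 and 318 CPM in aged-SP and 314 to 398 CPM in young-SP. Its log2 fold change was -0.20 (edgeR adjusted p = 0.445), and -0.30 without young-SP replicate 1. Its share of the beta chains per kb did not overlap, at 34.8% and 37.0% in aged-SP and 41.1%, 51.1% and 45.3% in young-SP (exact permutation p = 0.2, the smallest possible). Lamb2, the beta chain of synaptic, vascular and kidney basement membranes and the highest of its class per kb, was at 270.0 and 301 CPM in aged-SP and 243, 214 and 291 CPM in young-SP, with a log2 fold change of 0.20 (edgeR adjusted p = 0.526).

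Lamb3, which pairs with Lama3 in the laminin of hemidesmosomes, had the largest standard error of the 37 members. It was at 94.5 and 34.3 CPM in aged-SP, at 35.8 CPM in young-SP replicate 1, and at 3.55 and 4.67 CPM in young-SP replicates 2 and 4. Young-SP replicate 1 lay between the aged-SP libraries, so the groups overlapped, and the log2 fold change of 2.13 ± 1.06 (SE) had an adjusted p of 0.344 in edgeR. Without that library it was 3.96 ± 0.56 (SE), with an edgeR adjusted p of 0.0327, and 3.45% of all genes then passed the edgeR limits. Leaving out the young-SP library nearest to aged-SP widens the gap by construction, so this refit is not independent support for a difference. The gland and epithelial sums given above placed young-SP replicate 1 in the same way (3 of 6 gland genes were higher and 2 lower without overlap, and 1 of 9 epithelial genes was higher), and their part in the Lamb3 values was not tested.

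Both nidogens were lower in aged-SP. Nid1, the main link between laminin and type IV collagen, was at 407 and 373 CPM in aged-SP and 600.4, 763 and 799 CPM in young-SP, without overlap. Its log2 fold change was -0.89 ± 0.15 (SE), a 1.85-fold difference of means, with an adjusted p of 0.0829 in edgeR and 4.63e-05 in DESeq2, but below the fold limit of the call. Without young-SP replicate 1, Nid1 was at a log2 fold change of -1.01 and passed the edgeR limits with an adjusted p of 0.0214. Nid1 kept a DESeq2 adjusted p under 0.05 with any library left out.

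Nid2, its less abundant relative, was at 26.8 and 33.1 CPM in aged-SP and 36.9, 63.8 and 50.0 CPM in young-SP. The gap between the groups was small beside the spread, and the log2 fold change of -0.75 ± 0.25 (SE) had an adjusted p of 0.211 in edgeR and 0.0741 in DESeq2. Nid1 held 89.4% to 92.4% of the nidogen transcripts per kb in every library, with overlapping groups. Summed per kb, the nidogens stood at 62.0 ± 2.56 CPM per kb in aged-SP (SD, n = 2) and 114 ± 17.3 in young-SP (SD, n = 3).

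**Figure D3:**
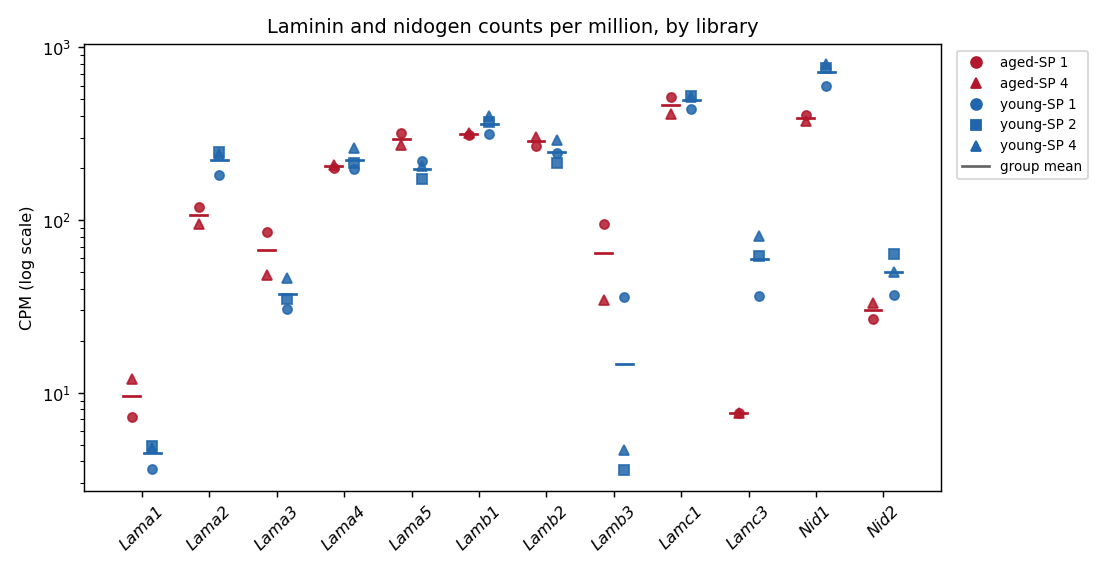
CPM of the 10 laminin chains and 2 nidogens in each library, on a log vertical axis, with a horizontal line at each group mean. The aged-SP points of Lamc3 coincide at 7.6 CPM below the 36.5 to 80.6 CPM of young-SP, those of Lama2, Nid1 and Nid2 lie below and those of Lama1, Lama3 and Lama5 above all young-SP points, and young-SP replicate 1 of Lamb3 lies with the aged-SP points.

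Upstream sequence was given for 24 of the 37 members in RefSeq on GRCm38.p6, and Lamc3, Lama1 and Lama3 were not among them. It is shown for a pair of members that were lower in aged-SP and for 1 that was higher, to let their starts be compared, with exon bases left out and motif matches in capitals. Lama2 lay at chr10:26980036-27619758 on the minus strand, and the RefSeq start used here lies 2816 bases inside that gene, so its window (chr10:27616943-27617192) may not be the start used in the uterus. Nid1 lay at chr13:13437551-13512269 on the plus strand, with the window chr13:13437352-13437550. Lama5 lay at chr2:180176373-180225859 on the minus strand, with the window chr2:180225860-180226109. All are written 5′ to 3′ on the gene's strand.
Lama2: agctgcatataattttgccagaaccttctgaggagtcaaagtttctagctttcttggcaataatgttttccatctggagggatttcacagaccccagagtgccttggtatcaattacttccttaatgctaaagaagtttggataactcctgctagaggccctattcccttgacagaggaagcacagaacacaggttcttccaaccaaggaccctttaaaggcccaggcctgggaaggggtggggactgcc
Nid1: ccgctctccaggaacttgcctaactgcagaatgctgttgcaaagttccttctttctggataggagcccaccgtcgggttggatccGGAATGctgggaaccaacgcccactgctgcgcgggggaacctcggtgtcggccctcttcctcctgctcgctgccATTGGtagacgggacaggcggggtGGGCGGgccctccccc
Lama5: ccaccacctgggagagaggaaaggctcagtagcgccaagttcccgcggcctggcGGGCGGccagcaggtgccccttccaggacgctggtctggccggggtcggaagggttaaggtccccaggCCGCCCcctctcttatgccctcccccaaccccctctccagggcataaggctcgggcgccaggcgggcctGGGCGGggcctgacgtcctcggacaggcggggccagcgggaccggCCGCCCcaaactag
The windows were searched on both strands for the GC box (GGGCGG), the CCAAT box (CCAAT), the TATA box (TATAAA), the AP-1 motif (TGANTCA) and the TEAD motif (GGAATG). Lama5 held 4 GC boxes, Nid1 held 1 GC box, 1 CCAAT box and 1 TEAD motif, and the Lama2 window held 0 of the 5 motifs. No matches overlapped. Among the 250 bases before the start, the GC box was in 9 of 24 members (37.5%) and 32.7% of all 32851 promoters, the CCAAT box in 4 (16.7%) and 33.8%, the TATA box in 0 and 12.4%, the AP-1 motif in 1 (4.17%) and 6.75%, and the TEAD motif in 3 (12.5%) and 12.6%. These are letter matches and not sites of binding.

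Turning to the receptors, 6 of the 25 integrin chains reached an unadjusted edgeR p under 0.05 (24%, near the 19.0% of all genes). They were Itga8, Itga9, Itga11, Itgav and Itgb5, which were higher in aged-SP, and Itgb7, which was lower. The 5 higher chains all belonged to the 11 integrins typical of stroma, muscle or vessels. Of the 6 epithelial chains 0 reached it, and of the 8 leukocyte or platelet chains 1 did.

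Itga11, a collagen receptor of fibroblasts, was the only integrin that passed the DESeq2 limits with all 5 libraries. It was at 10.3 and 9.72 CPM in aged-SP and 4.88, 3.96 and 4.61 CPM in young-SP, from 170 and 152 against 67 to 78 counts. The means differed 2.23-fold, and the libraries of each group lay close together. The log2 fold change was 1.16 ± 0.19 (SE), with an adjusted p of 0.0760 in edgeR and 0.0006 in DESeq2, and without young-SP replicate 1 it was 1.21 with an edgeR adjusted p of 0.0470. In DESeq2 the call was lost without aged-SP replicate 1, without aged-SP replicate 4 and without young-SP replicate 2. Of the 4 chains that bind collagen, Itga1, Itga2 and Itga10 did not reach an unadjusted edgeR p under 0.05, with log2 fold changes of 0.30, 1.03 and 0.14.

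The window before the start of Itga11 (gene at chr9:62677826-62783982 on the plus strand, window chr9:62677605-62677825) held 0 of the 5 motifs searched, and is shown as that of the only integrin called by DESeq2.
Itga11: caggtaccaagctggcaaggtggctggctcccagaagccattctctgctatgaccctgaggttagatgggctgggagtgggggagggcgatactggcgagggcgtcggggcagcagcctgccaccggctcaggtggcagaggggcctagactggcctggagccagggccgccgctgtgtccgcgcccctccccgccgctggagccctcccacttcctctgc

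Among the chains that bind the RGD motif of matrix proteins, Itgb5 differed most. Itgb5, which forms a vitronectin receptor with Itgav, was at 200.2 and 209 CPM in aged-SP and 126, 75.3 and 113 CPM in young-SP, with no overlap. The log2 fold change was 0.96 ± 0.22 (SE), just under the fold limit, with an adjusted p of 0.120 in edgeR and 0.0037 in DESeq2. Without young-SP replicate 1 it was 1.11, with an edgeR adjusted p of 0.0557, and it passed the DESeq2 limits without that library or without young-SP replicate 4. Per kb, Itgb5 made up 18.1% ± 0.63 of the beta chains in aged-SP (SD, n = 2) and 9.83% ± 2.22 in young-SP (SD, n = 3).

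Itgav, the alpha partner of Itgb5, was at 203 and 116 CPM in aged-SP and 103, 94.2 and 109 CPM in young-SP. Aged-SP replicate 1 was high and replicate 4 was close to young-SP, so the log2 fold change of 0.65 ± 0.24 (SE; edgeR adjusted p = 0.239) became 0.18 without aged-SP replicate 1. Itgb8, which also pairs with Itgav and activates latent TGF-beta, was high in the same library, at 140 CPM against 42.1 CPM in aged-SP replicate 4 and 56.7 to 69.4 CPM in young-SP. Its fitted direction turned with the library left out, from -0.61 without aged-SP replicate 1 to 1.13 without aged-SP replicate 4, when it passed the DESeq2 limits.

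Itga8, a partner of Itgb1 that binds nephronectin and is known from smooth muscle and mesenchyme, was at 51.9 and 50.8 CPM in aged-SP and 28.5, 27.8 and 35.5 CPM in young-SP. The groups lay well apart, with a log2 fold change of 0.75 ± 0.14 (SE) and an adjusted p of 0.0872 in edgeR and 0.0021 in DESeq2. Itga9, a tenascin receptor needed for lymphatic valves, was at 75.1 and 70.2 CPM in aged-SP and 47.8, 53.3 and 59.7 CPM in young-SP, with a log2 fold change of 0.44 ± 0.12 (SE; edgeR adjusted p = 0.1501, DESeq2 adjusted p = 0.0867). Beside these, the 4 markers of lymphatic endothelium (Lyve1, Prox1, Pdpn and Flt4) were each higher in aged-SP without overlap, and summed to 193 and 204 CPM against 86.7 to 132 CPM. Blood endothelial markers overlapped, at 624 and 627 CPM in aged-SP and 461 to 812 CPM in young-SP. The part of either in the integrin values was not tested.

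Itgb1, the beta chain shared by most integrins, was the most abundant integrin per kb and had the smallest standard error of the 37 members. It was at 932 and 937 CPM in aged-SP and 963, 951 and 1024 CPM in young-SP, a log2 fold change of -0.07 ± 0.09 (SE; edgeR adjusted p = 0.707). Its share of the beta chains per kb was 68.1% ± 0.53 in aged-SP (SD, n = 2) and 76.0% in young-SP, where Itgb5 was lower. Itga1, Itga5, Itga7, Itga10 and Itgb3 had log2 fold changes from 0.00 to 0.36, with edgeR adjusted p-values from 0.412 to 0.998. Of the exonic bases of Itga10, 33.5% overlap another annotated gene, so its counts are uncertain.

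**Figure D4:**
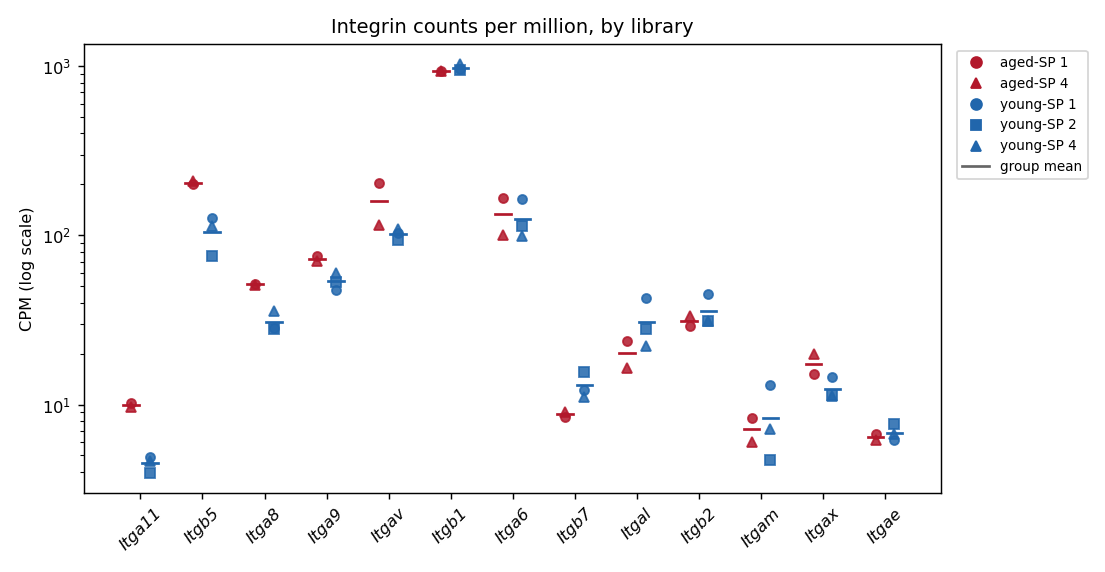
CPM of 13 integrin chains in each library on a log vertical axis, with a horizontal line at each group mean. Both aged-SP points of Itga11, Itgb5, Itga8, Itga9 and Itgav lie above and those of Itgb7 below all young-SP points, while the points of Itgb1 lie between 932 and 1024 CPM in both groups and those of Itga6 overlap.

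The 6 epithelial integrins all had positive log2 fold changes with all 5 libraries, and none passed the limits of edgeR or DESeq2 with all 5. Their log2 fold changes ran from 0.05 for Itgb4, the hemidesmosome beta chain, to 1.03 for Itga2, with edgeR adjusted p-values of 0.275 or more. Itga6, the laminin receptor chain that pairs with Itgb4 and the highest epithelial chain per kb, was at 167 and 100 CPM in aged-SP and 165, 113 and 99.0 CPM in young-SP. Replicate 1 was the higher library in both groups, and the log2 fold change of 0.09 ± 0.30 (SE) turned negative without aged-SP replicate 1 or without young-SP replicate 4. Itga2 was also highest in replicate 1 of each group, at 55.7 and 22.5 CPM in aged-SP and 31.8, 12 and 13.6 CPM in young-SP. Without young-SP replicate 1 its log2 fold change was 1.60 (edgeR adjusted p = 0.118), and it passed the DESeq2 limits. Itga3, a laminin receptor, was at 83.1 and 64.9 CPM against 65.7, 47.8 and 48.0 CPM, with a log2 fold change of 0.46 (edgeR adjusted p = 0.275), which was 0.62 without young-SP replicate 1, when its DESeq2 adjusted p was under 0.05. Of the 4 laminin-binding chains (Itga3, Itga6, Itga7 and Itgb4), 0 reached an unadjusted edgeR p under 0.05, while 7 of the 12 laminins and nidogens did. The difference between these counts was not tested.

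Leukocyte chains were low in both groups. Itgb7, the beta partner of Itga4 and Itgae on mucosal lymphocytes, was at 8.40 and 9.08 CPM in aged-SP and 12.3, 15.7 and 11.01 CPM in young-SP, with a log2 fold change of -0.57 ± 0.21 (SE; edgeR adjusted p = 0.233, DESeq2 adjusted p = 0.184). Itga4 lay at 23.9 and 18.1 CPM against 24.4 to 29.4 CPM, also without overlap (log2 fold change -0.33, edgeR adjusted p = 0.370). Itgae, which marks lymphocytes lodged in epithelium and some dendritic cells, lay at 6.71 and 6.14 CPM against 6.19 to 7.63 CPM, with overlap. Markers of T and NK cells summed to 42.8 and 32.4 CPM in aged-SP and 38.8 to 74.3 CPM in young-SP, with 2 of 8 lower without overlap, and their part was not tested.

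Itgb2, the beta chain common to leukocyte integrins and the highest of its class per kb, was at 29.1 and 33.4 CPM in aged-SP and 45.1, 31.3 and 31.0 CPM in young-SP. Only young-SP replicate 1 stood above the rest, and the log2 fold change of -0.20 ± 0.20 (SE; edgeR adjusted p = 0.632) was -0.01 without it. Its partner Itgal, on lymphocytes, was also highest in that library, at 42.4 CPM against 22.2 and 28.0 CPM in the other young-SP libraries and 23.7 and 16.4 CPM in aged-SP. Itgam, on neutrophils and macrophages, reached 13.01 CPM there against 4.73 to 8.34 CPM elsewhere, but 68.7% of its exonic bases overlap another annotated gene, so its counts are uncertain. Neutrophil markers summed to 243 CPM in young-SP replicate 1, 94.9 CPM in aged-SP replicate 1 and 23.0 to 39.8 CPM elsewhere, with Elane at 3 counts or fewer in every library, and their part was not tested. Pan-leukocyte markers summed to 297 and 316 CPM in aged-SP and to 396, 281 and 293 CPM in young-SP, with overlap.

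Itgax, an integrin of dendritic cells and some macrophages, went the other way. It was at 15.1 and 19.8 CPM in aged-SP and 14.5, 11.4 and 11.3 CPM in young-SP, narrowly without overlap (log2 fold change 0.49 ± 0.20, SE; edgeR adjusted p = 0.266). Dendritic cell markers summed to 83.6 and 84.3 CPM in aged-SP and 73.1 to 95.2 CPM in young-SP, and macrophage markers to 589 and 939 against 479 to 982 CPM, both with overlap. The platelet chain Itga2b was at 5.57 to 8.89 CPM in all libraries, with overlap and a log2 fold change of 0.23 (edgeR adjusted p = 0.634).

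**Figure D5:**
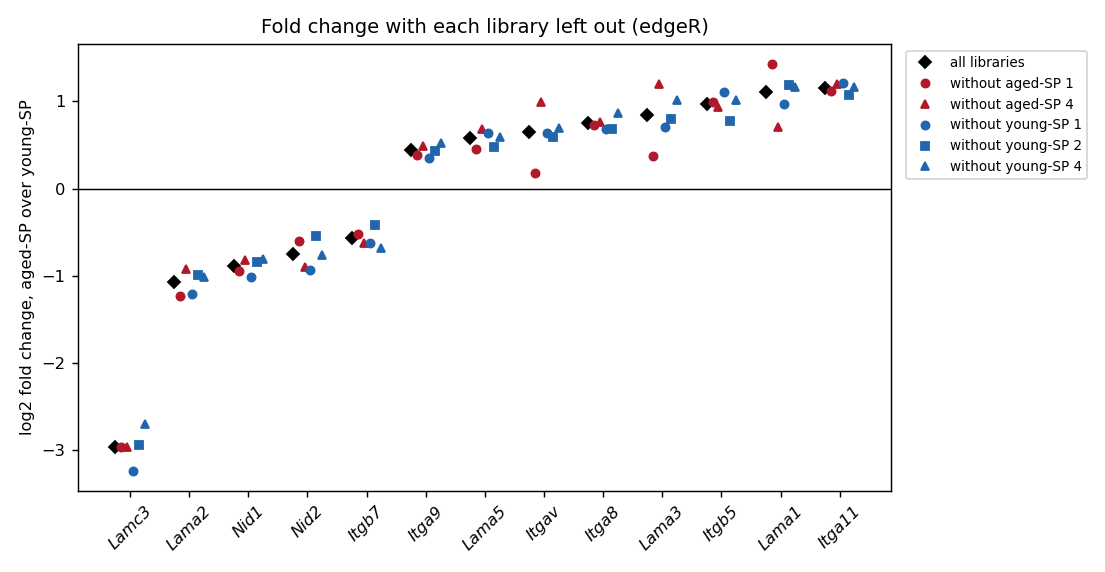
Log2 fold change in edgeR, aged-SP over young-SP, of the 13 members with an unadjusted p under 0.05, with all libraries (diamonds) and with each library left out in turn (coloured points). No point crosses 0, the Lamc3 points lie between -3.23 and -2.69, and those of Itgav and Lama3 come closest to 0, at 0.18 and 0.37, without aged-SP replicate 1.

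The other genes of these pathways were taken from lists written by role. For basement membrane partners of laminins, 12 of 30 tested genes reached an unadjusted edgeR p under 0.05 (40%, against 19.0% of all genes). They were 7 higher and 5 lower. In this list 0 genes passed the edgeR limits and 4 passed those of DESeq2, as 3.60% of all genes did. Col15a1, a collagen at the outer face of vessel and muscle basement membranes, was at 210.3 and 280 CPM in aged-SP and 680.2, 633 and 650 CPM in young-SP, far from overlap (log2 fold change -1.42, adjusted p = 0.0566 in edgeR and 7.92e-15 in DESeq2). Col18a1, the related source of endostatin, was at 184 and 232 CPM against 364, 516 and 592 CPM (log2 fold change -1.24, adjusted p = 0.0957 in edgeR and 4.97e-05 in DESeq2). These collagens were thus lower together with Lama2, Lamc3 and Nid1. In contrast, Bcam, a receptor for Lama5 laminins, was at 253 and 146 CPM in aged-SP and 103, 65.7 and 80.1 CPM in young-SP (log2 fold change 1.27, adjusted p = 0.117 in edgeR and 0.0013 in DESeq2). Fbln1, a fibulin of basement membranes, was at 707 and 407 CPM against 323, 158 and 218 CPM (log2 fold change 1.26, adjusted p = 0.166 in edgeR and 0.0100 in DESeq2). Bcam and Lama5 lay in the same direction. So did the laminin-binding Itga3, with overlapping groups (log2 fold change 0.46, edgeR adjusted p = 0.275). Other receptors differed less. Dag1, of the same list as Bcam, had a log2 fold change of -0.09 (edgeR adjusted p = 0.626). Those of the laminin-binding Itga6, Itga7 and Itgb4 were 0.09, 0.00 and 0.05.

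Of the matrix ligands of integrins, 5 of 19 tested genes reached an unadjusted edgeR p under 0.05 (26.3%, against 19.0% of all genes). They were 3 higher and 2 lower. In this list 0 genes passed the edgeR limits and 1 passed those of DESeq2, as 3.60% of all genes did. This was Fbn1, the microfibril protein, at 198 and 161 CPM in aged-SP and 305, 467 and 421 CPM in young-SP (log2 fold change -1.15, adjusted p = 0.0905 in edgeR and 5.14e-05 in DESeq2). At a DESeq2 adjusted p under 0.05 alone, 5 genes passed (25%, against 7.58% of all genes). Besides Fbn1 these were Fn1, which was lower, and Mfge8, Tgfb3 and Lrrc32, which were higher. Fn1 was at 1049 and 1372 CPM in aged-SP and 2036, 2423 and 2490 CPM in young-SP (log2 fold change -0.94, adjusted p = 0.0829 in edgeR and 2.29e-05 in DESeq2). Of the ligands of leukocyte integrins, 3 of 8 reached an unadjusted edgeR p under 0.05 (37.5%, against 19.0% of all genes). Here 2 were higher and 1 lower, with 0 passing the edgeR limits. Jam2, a junctional molecule of endothelium, passed those of DESeq2, at 114 and 104 CPM in aged-SP and 145, 331 and 399 CPM in young-SP (log2 fold change -1.42, adjusted p = 0.180 in edgeR and 0.0074 in DESeq2). Inside the cell, 7 of 29 adhesion complex genes reached an unadjusted edgeR p under 0.05 (24.1%, near the 19.0% of all genes). They were 5 higher and 2 lower, and 0 of the 29 passed the limits of either test. The smallest p-values belonged to Apbb1ip, the Rap1 effector that activates integrins in leukocytes (log2 fold change -0.57, edgeR adjusted p = 0.106), and to Tns2, a tensin that couples integrin tails to actin (0.64, edgeR adjusted p = 0.135).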

How the data were processed

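RNA of whole uteri was measured in 5 libraries. The authors aligned the reads with HISAT2 2.1.0 and deposited unnormalized counts per gene, and their processing notes also name Bowtie2 2.2.3 and HTSeq 0.6.0. Neither annotation nor strand setting of the counting is given in the sources used here. The authors also deposited FPKM values, which are these counts scaled by gene length and by the library total, and which served here to give gene length. The mean signal, log2 fold change, fold ratio and p-value columns deposited by the authors hold the mean of scaled counts and their own DESeq2 comparison, and were not used. There were 0 unused columns of single libraries. Of the 38 rows of members, 35 matched a GENCODE M21 gene in position (GRCm38), and the printed coordinates are those of the deposited table.

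Counts were analysed in R 4.3.3 with edgeR 4.0.16 (filterByExpr, TMM, quasi-likelihood F test, Benjamini-Hochberg adjustment over all 17013 tested genes), and with DESeq2 1.42.0 and limma 3.58.1 as alternatives. The standard error (SE) of a fold change is its size over the square root of F. The biological coefficient of variation was 25.1%. No pair of libraries was a duplicate, as their counts differed by a chi-square of at least 17.0 for each degree of freedom. The scripts were tested on simulated data. Shares were compared with the exact permutation test over libraries. Groups came from the sample titles, and male ages from the study's methods. The members and lists were chosen with earlier results of these data known. Values in every library are given for members called by either test, with an unadjusted edgeR p under 0.05, or highest of their class per kb, and other members are given by class. Of the other lists, genes called by either test are named, at most 4 by p, or else the 2 with the smallest p. A few members were added after their values were seen, for the contrast they make with a partner chain. Matrix ligands that missed only the fold limit were also named after their values were seen.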

Additional observations from a re-analysis of the deposited data

How the results depend on the processing

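With 2 against 3 libraries, calls depended on the test and on single libraries. Members passing the limits numbered 0 by edgeR with TMM, DESeq2 size factors or library size alone, by limma-voom and with at least 10 counts in every library, 4 by DESeq2 and 2 (Lama2 and Lamc3) with no filter on low counts. With a library left out, they ranged from 0 to 5 in edgeR, the 5 being Itga11, Lama2, Lamb3, Lamc3 and Nid1 without young-SP replicate 1. In DESeq2, where leaving out libraries was added after seeing the data, they ranged from 1 (Lamc3, without young-SP replicate 2) to 7 (without young-SP replicate 1), with 2 without aged-SP replicate 1. Leaving out an aged-SP library leaves a lone sample that is assumed to vary like the other group. Over the libraries left out, members lower at an unadjusted p under 0.05 ranged from 3 (without aged-SP replicate 4 or young-SP replicate 2) to 6, and those higher from 6 to 10 (11 with no filter on low counts). The fold change of Itga6 ranged from -0.33 to 0.41, with -0.06 without young-SP replicate 4, that of Lamc1 from -0.27 to 0.065, and the difference in the Nid1 share from -2.13 to 0.35 percentage points. Of 252 alternatives for the 18 members with values in every library, 249 kept the direction. Over all 37 tested members, 6 changed sign with a library left out (Itga6, Itga7, Itgam, Itgb4, Itgb8 and Lamc1). Over all genes, 25 passed in edgeR, 632 in DESeq2, 203 with no filter and, with a library left out, between 1 (aged-SP replicate 1) and 578 (young-SP replicate 1).

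Genes passing in the other lists were 1 matrix ligand, 1 leukocyte ligand and 4 basement membrane partners by DESeq2, against 0 each in edgeR. With a library left out they ranged in edgeR from 0 to 1 for the adhesion complex, and from 0 to 2 for matrix ligands, leukocyte ligands and basement membrane partners, the highest without young-SP replicate 1.

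Only numbers 1 and 4 are shared by the groups, and no label ties them to a common day or batch. Deviations from the group means correlated at 0.169 and 0.168 for the same number and at -0.169 and -0.168 for the crossed numbers. With 2 aged-SP libraries their deviations are mirror images, so the crossed values are the others with the sign turned and add no information. A fit with the replicate number as a block called 0 members and 2 genes in all, with 9 members higher and 5 lower at an unadjusted p under 0.05 and a median log2 fold change of 0.10.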
